A study of Danio rerio with 9 samples.

Results

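The 7 transcription factors described here, *tp63*, *tfap2a*, *tfap2c*, *foxi1*, *gata2a*, *gata3* and *grhl3*, are known from the epidermal ectoderm of vertebrate embryos. They were chosen by name, with earlier results of these data known, and each had a single row among the 28260 genes with counts. RNA was sequenced from 9 samples of whole zebrafish embryos of the TE strain, 3 per group, with 10 embryos pooled in each sample and frozen at shield stage (6.75 hpf). The embryos were left uninjected, or injected at the 1-cell stage with 10 pg of mRNA for the ligand Bmp2b (*bmp*-overexpressing embryos) or with 100 pg of mRNA for Chordin, a secreted protein that binds BMP and keeps it from its receptors (*chordin*-overexpressing embryos). No group received a control mRNA, so against uninjected embryos injection itself and the injected message cannot be told apart. In the comparison of both injected groups, all embryos were injected, but the amount of mRNA differed (10 pg against 100 pg). The mRNA was supplied to the whole embryo and not to a chosen tissue. The labels number the 3 samples of each group as repeats and do not say whether these came from separate clutches, so p-values measure the spread between these samples.

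In the fish and frog gastrula, BMP signalling is high on the ventral side, where ectoderm turns towards epidermis, and low on the dorsal side, where secreted inhibitors such as Chordin allow ectoderm to become neural plate. The ventral cells turn on transcription factors of several families, which are known to set up the epidermis and, in part of the same territory, neural crest and the placodes of the sense organs. Around these cells lies the enveloping layer, a thin outer sheet that arises before gastrulation, covers the other cells of the embryo and expresses keratins and *grhl3*.

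Library totals ranged from 8861308 to 22372856 counts, a 2.525-fold spread, and Pearson's r between replicates of a group, over genes, lay between 0.95 and 0.97. The injected messages were found where the labels place them. *bmp2b* was at 709.7 to 908.7 CPM (counts scaled to library size) in *bmp*-overexpressing embryos against 98.7 to 116.9 CPM in uninjected embryos. *chd*, the gene for Chordin, was at 1653.7 to 2255 CPM in *chordin*-overexpressing embryos, 192.9 to 217.2 CPM in uninjected embryos and 25.8 to 34.8 CPM in *bmp*-overexpressing embryos.

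All 7 factors were on in uninjected embryos, taking 1 CPM in all 3 libraries as the limit. The share of all genes that reach this limit was not counted. *tp63*, the lowest of the 7 at 9.58 CPM, stood at percentile 67.0 of the 25113 genes with counts in uninjected embryos, so being on is not particular to these factors. 6 of the 7 rose with *bmp* and *grhl3* did not pass the test, so that these factors shared a baseline level above the limit but not a response. 3 of the 7 (*tfap2c*, *foxi1* and *gata2a*) also fell with *chordin*. Since whole embryos were sequenced, a rise can mean more cells of a type or more RNA per cell. A fall can mean fewer cells or less RNA per cell, and in neither case can these be told apart.

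**Figure D1:**
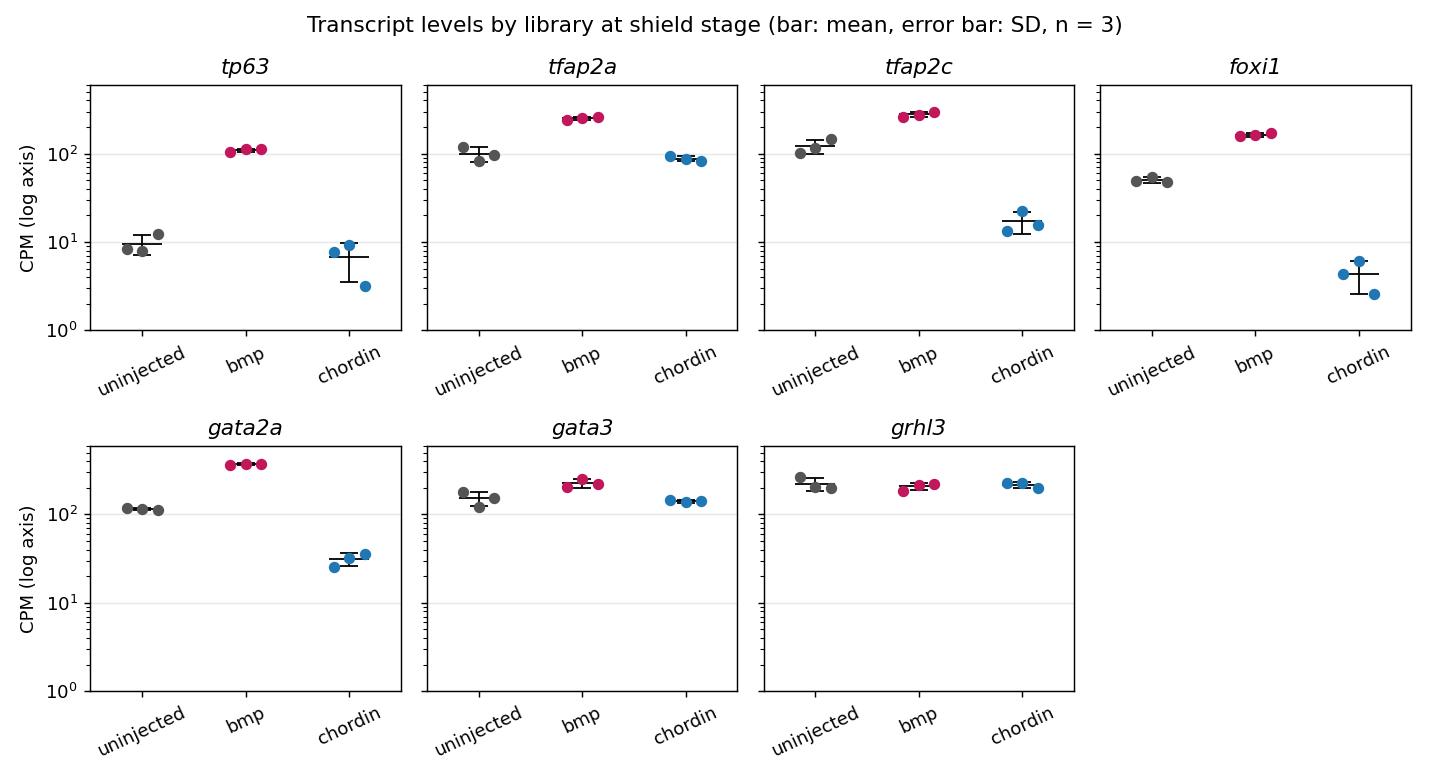
Level of each factor in CPM on a log axis for the 9 libraries, with uninjected, *bmp*-overexpressing and *chordin*-overexpressing embryos side by side; points are libraries and bars are group means. The 3 *bmp* libraries lie above all others for every factor except *grhl3*, and the 3 *chordin* libraries lie below the uninjected ones for *tfap2c*, *foxi1* and *gata2a*.

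*tp63*, on chromosome 6 (28886745 to 28923664, GRCz10), encodes p63, the p53-family protein that basal epidermal cells need to form and renew. Its level was 8.33, 8.0 and 12.4 CPM in the uninjected libraries, 104.4, 111.6 and 112.0 CPM with *bmp*, and 7.77, 9.21 and 3.16 CPM with *chordin*. The *bmp* libraries lay close together and far above the rest, while the *chordin* and uninjected libraries overlapped. Group means were 9.58 ± 2.46 CPM without injection and 109 ± 4.25 CPM with *bmp* (SD, n = 3), and the limma fit gave a log2 fold change of 3.59 (SE 0.225, adjusted p = 2.31e-13). This is a 12.0-fold rise and the largest with *bmp* among the 7. Against uninjected embryos, *chordin* gave -0.74 on the log2 scale (95% interval -1.53 to 0.04, limma adjusted p = 0.566), which was not called. Replicate 3 carried much of that value, since without it the change was -0.12. *tp63* was also low without injection, with 127, 186 and 172 counts in the uninjected libraries and 98, 81 and 55 counts in the *chordin* libraries. Falls of the size seen for *tfap2c*, *foxi1* or *gata2a* lay outside the interval, but changes between -1.53 and 0.04 did not.

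The AP-2 factors *tfap2a* and *tfap2c* act together in zebrafish in non-neural ectoderm and neural crest. *tfap2a* lies on chromosome 24 (8581298 to 8592139) and *tfap2c* on chromosome 6 (56157640 to 56195515). In the uninjected libraries *tfap2a* was at 119.8, 83.2 and 96.4 CPM and *tfap2c* at 103.0, 116.8 and 146.2 CPM, a scale that does not correct for length between genes. With *bmp*, *tfap2a* rose to 243.7, 251.3 and 261.7 CPM. *tfap2c* rose to 261.0, 274.5 and 298.2 CPM. All *bmp* libraries lay above all uninjected ones for both genes, and the limma log2 fold changes were close, at 1.38 for *tfap2a* (SE 0.118, adjusted p = 3.14e-10) and 1.22 for *tfap2c* (SE 0.113, adjusted p = 2.26e-09). With *chordin* the pair parted. *tfap2a* stayed within the range of the uninjected libraries or just below it, at 93.4, 87.7 and 81.7 CPM, whereas *tfap2c* was at 13.5, 22.5 and 15.5 CPM, far below every uninjected library. The *tfap2c* change was -2.89 on the log2 scale (SE 0.219, limma adjusted p = 5.44e-10), a 7.40-fold fall. For *tfap2a* it was -0.16 (95% interval -0.45 to 0.13, limma adjusted p = 0.777).

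The ratio of *tfap2c* to *tfap2a* counts within a library does not depend on sequencing depth and shows the same. It was 0.860, 1.40 and 1.52 in uninjected libraries, 1.07, 1.09 and 1.14 with *bmp*, and 0.144, 0.256 and 0.189 with *chordin*. The *bmp* values lay inside the uninjected range and the *chordin* values below it.

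*foxi1*, on chromosome 12 (43916243 to 43917947), is a forkhead factor that marks ventral ectoderm in the zebrafish gastrula and is later needed for the otic placode. Its level was even among uninjected libraries, at 49.7, 55.2 and 47.9 CPM. It was 157.1, 161.7 and 172.4 CPM with *bmp*, and 4.36, 6.14 and 2.59 CPM with *chordin*. None of the 3 groups overlapped. The limma log2 fold change was 1.68 with *bmp* (SE 0.129, adjusted p = 3.05e-11), a 3.20-fold rise. With *chordin* it was -3.77 (SE 0.362, adjusted p = 6.06e-08), a 13.6-fold fall and the largest with *chordin* among the 7. The *chordin* libraries still held 55, 54 and 45 *foxi1* counts, above the limit of 3 counts taken as detection, so the gene was low but not absent.

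*gata2a* lies on chromosome 11 (3828496 to 3846256) and *gata3* on chromosome 4 (25064821 to 25080494). GATA2 and GATA3 are zinc-finger factors of ventral ectoderm in frog and fish, and *gata2a* also acts in blood formation. *gata2a* had the most even baseline of the 7, at 117.5, 114.2 and 113.7 CPM. It was 360.2, 373.0 and 375.4 CPM with *bmp* and 25.6, 32.4 and 36.0 CPM with *chordin*, with 3 separate groups. Its limma log2 fold changes were 1.69 (SE 0.099, adjusted p = 4.71e-14) and -1.87 (SE 0.163, adjusted p = 8.68e-09), that is 3.23-fold up and 3.66-fold down. *gata3* varied more, at 177.8, 122.7 and 154.2 CPM in uninjected libraries, 202.6, 254.5 and 222.9 CPM with *bmp*, and 147.0, 137.0 and 140.2 CPM with *chordin*. Its *bmp* libraries all lay above its uninjected ones, by 0.63 on the log2 scale (SE 0.12, limma adjusted p = 0.000827), the smallest of the 6 rises. The *chordin* values of *gata3* fell inside the uninjected range, with a log2 change of -0.06 (95% interval -0.31 to 0.20, limma adjusted p = 0.932).

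Within a library, there were 0.661, 0.930 and 0.737 *gata2a* counts per *gata3* count in uninjected embryos. The ratio was 1.78, 1.47 and 1.68 with *bmp* and 0.174, 0.237 and 0.257 with *chordin*. It separated the 3 groups with no overlap.

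*grhl3*, on chromosome 17 (26946947 to 26958792), is a grainyhead-like factor that in zebrafish is known from the enveloping layer and the developing epidermis. It was at 266.5, 203.8 and 198.9 CPM in uninjected libraries, 186.0, 218.0 and 219.1 CPM with *bmp*, and 226.0, 227.3 and 199.1 CPM with *chordin*. The 3 groups overlapped. The log2 change was -0.08 with *bmp* (95% interval -0.30 to 0.15, limma adjusted p = 0.831) and -0.03 with *chordin* (95% interval -0.26 to 0.20, limma adjusted p = 0.963). Its level was 223 ± 37.7 CPM in uninjected embryos (SD, n = 3), and the intervals leave out a change as large as the *bmp* response of any other member. No other row of the table overlaps the locus of any of the 7 genes, which matters because the libraries do not keep strand.

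All 7 passed the filter on low counts in each comparison, and their calls were read against those of all genes tested. The members were chosen with earlier results of these data known, so the shares over all genes are a background and not a test of the set. 6 of 7 were called higher and 0 lower, where 1.72% of the genes tested were called higher and 1.43% lower. The *bmp* and uninjected libraries did not overlap for the same 6, where 17.9% of all genes tested did not overlap. With *chordin*, 0 of 7 were called higher and 3 lower, where 0.591% of genes were called higher and 0.301% lower. Those 3 were also the members without overlap between *chordin* and uninjected libraries, against 14.5% of all genes. Between *bmp*-overexpressing and *chordin*-overexpressing embryos, 6 of 7 were higher with *bmp* and 0 lower, where 2.19% of genes were higher and 2.85% lower, and the same 6 did not overlap, against 19.3% of genes. The exact permutation test over the 3 libraries of each group cannot go below p = 0.1 (two-sided), so for single genes the calls rest on the limma fits.

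Direct comparison of both injections gave the widest range. *foxi1* was 43.6-fold higher with *bmp* than with *chordin*, *tp63* 20.1-fold, *tfap2c* 17.2-fold, *gata2a* 11.8-fold, *tfap2a* 2.9-fold and *gata3* 1.60-fold. All 6 were called by limma. *grhl3* was at -0.05 on the log2 scale (95% interval -0.24 to 0.15).

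Both changes use the same uninjected libraries, so whether a member responded to *bmp* and to *chordin* by unequal amounts was tested in a single limma fit over the 9 libraries. The quantity was the sum of both log2 fold changes, which is 0 when they are equal and opposite. It was positive for *tp63* (2.83, SE 0.538, adjusted p = 0.00322) and *tfap2a* (1.22, SE 0.215, adjusted p = 0.00133), whose change with *bmp* was larger than that with *chordin*. It was negative for *tfap2c* (-1.68, SE 0.269, adjusted p = 0.000347) and *foxi1* (-2.10, SE 0.411, adjusted p = 0.00436), whose change with *chordin* was the larger. Across all genes tested, 0.5% had a positive and 0.583% a negative sum by the same threshold. For *gata2a* the sum was -0.19 (95% interval -0.63 to 0.25, limma adjusted p = 0.813), for *gata3* 0.57 (95% interval 0.15 to 0.98, limma adjusted p = 0.252) and for *grhl3* -0.12 (95% interval -0.49 to 0.25, limma adjusted p = 0.874). Single libraries decided some of these. Without uninjected replicate 2 the *tfap2a* sum was 0.92 (limma adjusted p = 0.0564) and without *chordin* replicate 3 the *foxi1* sum was -1.67 (limma adjusted p = 0.0735), while without uninjected replicate 1 the *gata3* sum was 0.81 and was called (limma adjusted p = 0.0251). The *tfap2c* and *tp63* sums kept their call in every refit without a library, with *tp63* at a limma adjusted p of up to 0.049 (without uninjected replicate 2).

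**Figure D2:**
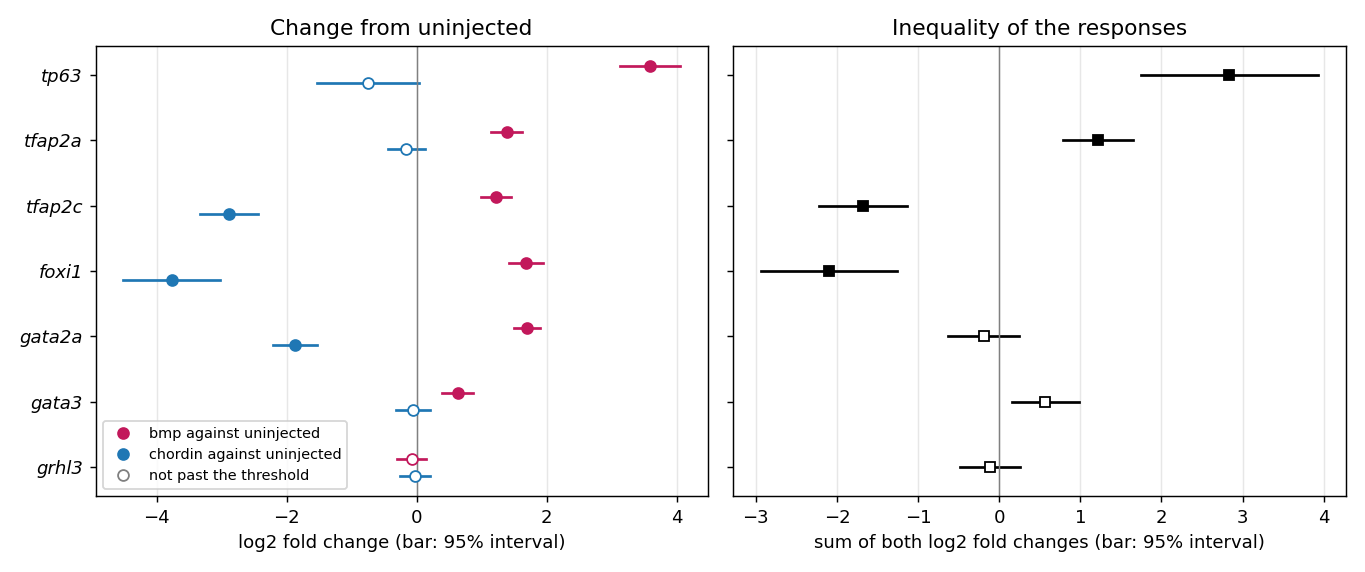
Left, log2 fold change of each factor from uninjected embryos with *bmp* and with *chordin*; right, the sum of both changes; bars are 95% intervals, filled symbols passed an adjusted p of 0.05 and open ones did not. *tp63* and *tfap2a* lie to the right of 0 in the right panel, *tfap2c* and *foxi1* to the left.

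The log2 scale sets this order. In CPM, *foxi1* rose by 113 with *bmp* and fell by 46.6 with *chordin*, and *tfap2c* rose by 156 and fell by 105, so for both the rise was larger than the fall, the opposite of the order of their log2 changes. The group means of *tp63* differed by 99.8 CPM with *bmp* and -2.87 CPM with *chordin*, and those of *tfap2a* by 152 and -12.2 CPM, the same order on both scales. *gata2a* rose by 254 CPM and fell by 83.8 CPM. A fall in CPM cannot exceed the uninjected level, and each of these rises did. The larger rise in CPM was therefore fixed in advance for every gene named here, and the order in CPM adds no support to that on the log2 scale.

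The ratio of *foxi1* to *tp63* counts within a library was 5.96, 6.90 and 3.86 in uninjected libraries, 1.5, 1.45 and 1.54 with *bmp*, and 0.561, 0.667 and 0.818 with *chordin*. It was thus lower in both injected groups than in uninjected embryos, with no overlap. The ratio restates different changes, since with *bmp* *tp63* rose more than *foxi1* (log2 3.59 against 1.68). With *chordin*, *foxi1* fell (-3.77) while *tp63* was not called.

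**Figure D3:**
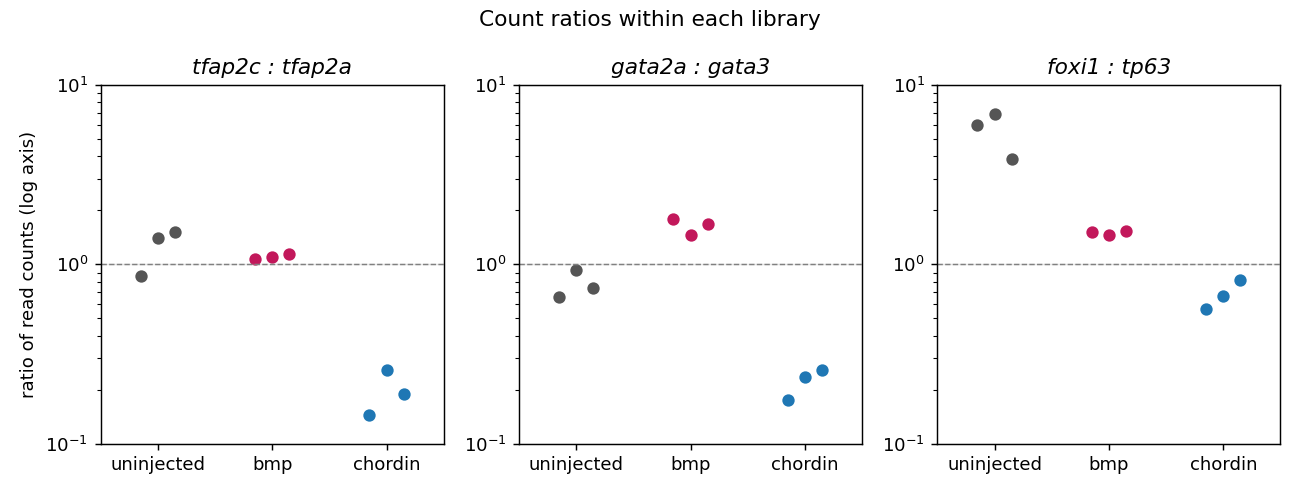
Ratio of read counts within each library for 3 pairs of factors, on a log axis, by group; points are libraries. *tfap2c* per *tfap2a* is low with *chordin* alone, *gata2a* per *gata3* is ordered *bmp*, uninjected, *chordin*, and *foxi1* per *tp63* is highest in uninjected embryos.

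Levels of different genes were compared per length, with the deposited FPKM, which are group values of the authors without an SD. The span of the libraries on this scale was obtained from their CPM. In uninjected embryos *grhl3* was highest at 77.9 FPKM, then *gata2a* at 70.4, *gata3* at 56.3, *foxi1* at 42.4, *tfap2a* at 27.1, *tfap2c* at 13.6 and *tp63* at 2.44. The spans overlapped between *grhl3* and *gata2a* and between *gata3* and *foxi1*, and those neighbours did not differ beyond their spread. With *bmp*, *gata2a* led at 235 FPKM and *foxi1* followed at 138. *gata3* was at 79.3 and *grhl3* at 68.5, with overlapping spans, then came *tfap2a* at 58.95, *tp63* at 30.3 and *tfap2c* at 25.8. *tp63*, lowest by far at baseline, thus stood above *tfap2c*. With *chordin*, which comes from a separately normalized table, *grhl3* was at 74.7 FPKM and *gata3* at 50.7. *tfap2a* at 22.1 and *gata2a* at 20 overlapped, as did *foxi1* at 3.23, *tp63* at 1.68 and *tfap2c* at 1.68. In these values *grhl3* stayed between 68.5 and 77.9 FPKM in the 3 groups while the factors around it changed order. Where the *bmp* group was normalized with the *chordin* group instead, its *bmp* value was 66.3 FPKM.

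**Figure D4:**
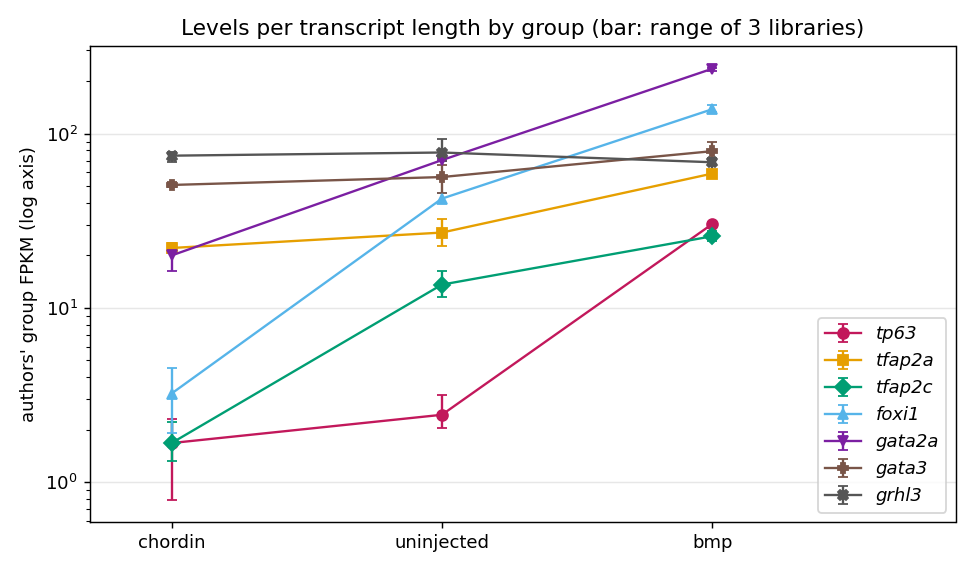
Deposited group FPKM of the 7 factors on a log axis in the 3 groups; bars span the 3 libraries of a group, scaled from CPM. *grhl3* leads in uninjected and *chordin*-overexpressing embryos, and *gata2a* and *foxi1* lead in *bmp*-overexpressing embryos.

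The 17 family relatives of these factors (other AP-2, FoxI, GATA, grainyhead and p53 genes) were followed beside them. Of the 9 relatives with enough counts, 0 were called by limma with *bmp* in either direction. At an unadjusted p under 0.05, 2 were higher, *foxi3a* among them, and 1 lower, and limma-trend called 0. *foxi3a* held 4, 0 and 6 counts in uninjected libraries and 27, 24 and 57 with *bmp*, without overlap. Its log2 change with *bmp* was 4.27 (SE 1.64, limma adjusted p = 0.208), larger than that of any member. It rested on these low counts and was not called, so a response of *foxi3a* to *bmp* was not excluded. Of the 7 tested with *chordin*, 0 were called, 0 at an unadjusted p under 0.05 and 0 by limma-trend. Between both injections *gata5*, an endoderm and heart factor, was higher with *bmp* (log2 0.50, SE 0.12, limma adjusted p = 0.00844) and *gata6* was lower (log2 -0.40, SE 0.091, limma adjusted p = 0.00421). Without *bmp* replicate 2 or *chordin* replicate 3, 0 relatives were called higher there. The *gata5* and *gata6* differences are smaller than those of 6 of the 7 members, with *gata3* nearest at 0.68. The summed level of the 17 relatives was 731 to 780 CPM in uninjected, 663 to 756 CPM in *bmp*-overexpressing and 765 to 802 CPM in *chordin*-overexpressing embryos, with ranges that overlap between uninjected embryos and each injected group.

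Other genes of the non-neural ectoderm also rose with *bmp*. Of 18 listed genes 12 could be tested with *bmp*, and 6 rose and 0 fell, with a median log2 change of 0.86 against 0.01 over all genes tested. The homeobox genes *msx1a* (3.08), *dlx3b* (2.81) and *msx3* (2.62) and the Krüppel-like genes *klf2a* (2.5) and *klf2b* (1.39) rose most on the log2 scale. *cdh1*, the gene for E-cadherin, rose by 0.33 on that scale (limma adjusted p = 0.0472). The number that rose was 5 with RLE factors, by limma-trend, after thinning and at an adjusted p under 0.01. It was also 5 without uninjected replicate 2 or 3 or any of the *bmp* replicates. With *chordin*, 2 of 12 fell, *klf2b* (-1.81) and *msx1b* (-1.70), and 0 rose, with a median of -0.45 against 0.00, and the number that fell was 1 without uninjected replicate 3, *chordin* replicate 2 or *chordin* replicate 3, and 3 without the low-count filter, by limma-trend, with the replicate block and after thinning. *klf2b* was thus called in both comparisons, as *tfap2c*, *foxi1* and *gata2a* were. The other genes that rose with *bmp* did not pass the test with *chordin*, but some were near 0 there. *msx3* held 54, 126 and 69 counts in uninjected libraries and 1, 0 and 1 with *chordin* (limma adjusted p = 0.0714), and *msx1a* held 64, 87 and 28 counts against 0, 5 and 9 (limma adjusted p = 0.379). The log2 change with *chordin* was -0.82 for *klf2a* (95% interval -1.44 to -0.21), -0.57 for *dlx3b* (95% interval -1.95 to 0.82) and -0.04 for *cdh1* (95% interval -0.24 to 0.16). For *klf2a* the sum of both changes was 1.67 (95% interval 0.78 to 2.56, limma adjusted p = 0.0501) and was not called.

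Genes of the neural plate, the tissue that borders the epidermal ectoderm, fell with *bmp*. Of 13 tested 7 fell, among them *otx2* and *sox2*, and 0 rose (median log2 change -0.77 against 0.01 over all genes tested). Without *bmp* replicate 2 or 3, 4 fell. With all libraries, 10 were lower and 1 higher at an unadjusted p under 0.05, the latter being *zic1* (log2 1.91, limma adjusted p = 0.169). With *chordin*, 4 of 15 rose, *otx1a* and *her3* among them, and 2 fell, the neural progenitor genes *sox2* (-0.60) and *sox3* (-0.43), with a median of 1.27 against 0.00. Those falls were lost (0 called) without uninjected replicate 3 or any of the *chordin* replicates, and 1 was called without uninjected replicate 2. The summed level of the list was 1880 to 2108 CPM in uninjected, 1328 to 1495 CPM in *bmp*-overexpressing and 1976 to 2158 CPM in *chordin*-overexpressing embryos, so with *bmp* it lay below the uninjected range. Of the ventral and lateral mesoderm genes, 3 of 5 tested rose with *bmp* (*eve1*, *tbx16* and *cdx4*) and 2 of 6 fell with *chordin* (*eve1* and *cdx4*). With *bmp*, *drl* (log2 1.17) and *fli1a* (log2 -1.63) were not called. *tal1*, *lmo2*, *hand2* and *fli1a* averaged below 1 CPM in uninjected and *bmp*-overexpressing embryos. A change of the blood lineage, which uses *gata2a*, could not be read from those low genes and was not tested. The summed level of the mesoderm genes was 756 to 855 CPM in uninjected embryos, 1155 to 1302 CPM with *bmp* and 550 to 589 CPM with *chordin*. *tbx16* alone averaged 559 CPM in uninjected embryos. The part of mesoderm in the *gata2a* values was not tested. Of the organizer genes, from the dorsal side, 4 of 5 tested fell with *bmp* (*noto*, *gsc*, *foxa3* and the endogenous *chd*) and 5 of 6 rose with *chordin*, *chd* itself being the injected message there. Their summed level was 464 to 504 CPM in uninjected embryos and 151 to 196 CPM with *bmp*. Of 3 endoderm genes tested, 0 were called with *bmp* (1 higher and 1 lower at an unadjusted p under 0.05) and 0 with *chordin* (2 higher at an unadjusted p under 0.05) by limma, and limma-trend called 0 in both. The replicate block, or all 3 groups in the fit, gave 1 endoderm gene lower with *bmp*, and leaving out uninjected replicate 1 gave 1 higher with *chordin*.

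The enveloping layer was followed with 10 genes of its keratins, claudins and *klf17*. With *bmp*, 1 of them, *krt5*, fell (-0.44 on the log2 scale, SE 0.095, limma adjusted p = 0.0031) and 0 rose. Without uninjected replicate 2, 5 fell, and without uninjected replicate 1, 1 rose. With *chordin* 0 were called by limma, 1 was higher at an unadjusted p under 0.05, limma-trend called 0, and limma called 2 higher without uninjected replicate 1. Between both injections *krt4*, *krt5* and *krt8* were lower with *bmp*, of which limma-trend, all 3 groups in the fit, or leaving out *bmp* replicate 1 gave 1. The summed level of the 10 genes was 7913 to 11694 CPM in uninjected, 8417 to 9099 CPM in *bmp*-overexpressing and 9445 to 10528 CPM in *chordin*-overexpressing embryos. Uninjected libraries therefore spread 1.478-fold, with all 10 genes highest in replicate 1 and lowest in replicate 2. *gata3* and *tfap2a* had that same order among the uninjected libraries, with spreads of 1.448-fold and 1.439-fold, and *grhl3* was also highest in replicate 1, with 1.339-fold. *gata2a* spread 1.033-fold and *foxi1* 1.151-fold, while *tfap2c* (1.419-fold) and *tp63* (1.553-fold) were highest in replicate 3. The part of the enveloping layer in the *tfap2a*, *gata3* and *grhl3* values was not tested. Without uninjected replicate 1, the *grhl3* change with *bmp* was 0.043 on the log2 scale.

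Across the 9 libraries the 7 factors fell into patterns, described by Pearson's r of log2(CPM + 0.5). These libraries share their groups, so r mostly restates group means. *tfap2c* and *foxi1* were each other's closest gene among 18003, with r = 0.991, and *gata2a* stood at 0.973 and 0.972 to them. *tp63* and *tfap2a* were at 0.968 to each other, and *gata3* was closer to *tfap2a* (0.948) than to *gata2a* (0.805), its own family member. *grhl3* was between -0.206 and 0.075 with the others. Also close was *id2a*, an inhibitor of DNA binding, for both (0.990 for each). The BMP pseudoreceptor *bambia* followed for *tfap2c* (0.989) and *szl*, a secreted feedback inhibitor of BMP signalling, was at 0.991 for *foxi1*. Closest to *gata2a* were *znfl2b* (0.994), *klf2b* (0.993) and *msx3* (0.993). For *tp63* these were *fam212ab* (0.993), *ywhaqa* (0.987) and *dlx2a* (0.986), and for *tfap2a* *ywhaqa* (0.990), *dlc* (0.988), a Notch ligand, and *tbx2b* (0.986). *gata3* had *LOC100537074* (0.972), *LOC108180071* (0.954) and *rarga*, a retinoic acid receptor (0.953), of which the first and second were near 1 CPM or below. *grhl3* had *hddc3* (0.948), *si:dkeyp-118h3.6* (0.919) and *LOC108183410* (0.915), in none of which the group means differed by as much as in the genes closest to *tp63* or *foxi1*.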

How the data were processed

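Poly(A) RNA of 9 whole-embryo samples was sequenced without strand information. Per the labels, reads were aligned with STAR 2.4.1b to GRCz10. HTSeq is named there too, with no role given. The authors deposited 3 tables, 1 per pair of groups, with whole-number read counts per gene, not normalized and written with digit separators, and group FPKM from Cuffdiff 2.1.1. The deposited fold changes, p-values and calls of the authors' own comparisons were not used. All columns of counts matched a sample, and 0 rows named no gene.

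The design named limma voom in place of a count model because the separators made the columns read as text. The separators were removed to give whole numbers, so the counts themselves did not prevent a count model. limma 3.58.1 in R 4.3.3 was run with TMM factors, for which 30% of the fold changes and 5% of the levels were trimmed. Genes entered with at least 15 counts overall and, in 3 or more libraries, a CPM equal to 10 counts in a library of median size. Each fit held the 2 groups it compared, except for the sum of both changes, which used all 9 libraries. The threshold for a call was an adjusted p (Benjamini-Hochberg, over all genes tested) of 0.05. CPM use TMM factors over 9 libraries, which moved no library by more than the range 0.9597 to 1.039, and 3 counts were the detection limit. Python 3.11.15, pandas 2.3.3, scipy 1.17.1 and matplotlib 3.10.9 were used, and the fits were tested on simulated data. Depth ranged from 8861308 to 22372856 counts, and precision is limited by the number of libraries, 3 in each group, and for *tp63* and *foxi1* with *chordin* by counts of 45 to 98 per library.

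The members and lists were chosen with earlier results of these data known. Genes named are the members, the injected genes, called relatives, the relative *foxi3a*, called or example genes of the lists, and the 3 genes closest to each member. Alternatives were no low-count filter, RLE factors, limma-trend, a replicate block, an adjusted p under 0.01, thinning to 8861308 counts, all 3 groups in the fit, and each library left out. List counts and mean CPM under the alternatives were added after seeing the data, as were *foxi3a* and the other examples named from the lists.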

Additional observations from a re-analysis of the deposited data

How the results depend on the processing

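The number of members called with *bmp* (6 higher, 0 lower), with *chordin* (0 higher, 3 lower) and between both injections (6 higher, 0 lower) was the same under every alternative, including each library left out. With the replicate block the counts were 6, 3 and 6, and it changed 0 of 28 member calls. Same-numbered samples of different groups did not deviate together (correlations -0.00543 to 0.071 over 9 pairs), so the numbers were not taken to pair the samples. For the sum of both changes, leaving out 1 library gave 1 to 3 members called positive and 1 to 2 negative, against 2 and 2 (1 positive without uninjected replicate 2, 1 negative without *chordin* replicate 3).

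Log2 changes near 0 turned sign without a library. *grhl3* with *bmp* ranged from -0.15 to 0.043, *grhl3* with *chordin* from -0.10 to 0.10 (0.05 without *chordin* replicate 3), *grhl3* between both injections from -0.13 to 0.023, the *grhl3* sum from -0.26 to 0.12, and *gata3* with *chordin* from -0.22 to 0.07. None of these was called. Over all genes, the sum was called positive for 90 and negative for 105, and without the low-count filter for 64 and 57. These numbers were 185 and 204 without uninjected replicate 1, 22 and 61 without uninjected replicate 2, and 33 and 46 without uninjected replicate 3. The shares over all genes given for the sum thus depend on the libraries used. The cause of these differences was not tested. Among the lists, 45 of 756 counts moved by over 1.5 times, all of them counts of a few genes.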

Other observations

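The limits of these values are those of 3 libraries per group at a single stage and a single dose of each mRNA. The doses differ between *bmp2b* (10 pg) and *chordin* (100 pg), so the sizes of both responses hold for these doses. Whole embryos hold epidermal ectoderm beside mesoderm, organizer, endoderm, neural plate and enveloping layer, and the share of each was not measured. *tp63* with *chordin* rested on 55 to 98 counts per library, and a change between -1.53 and 0.04 on the log2 scale could not be told from none.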
